A study of Mus musculus with 8 samples.

Results

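The adrenomedullin system was described here by 5 genes of the 47729 in the deposited table: the ligand gene *Adm*, the receptor gene *Calcrl*, and the coreceptor genes *Ramp1*, *Ramp2* and *Ramp3*. The genes were taken by their symbols, and the set was selected on their measured levels in the 4 groups of tumors and on the host differences between them. Their levels and differences are therefore a description, and no p-value is given for any of them.

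Adrenomedullin is a secreted peptide that widens blood vessels and acts on blood and lymphatic endothelial cells. Its receptor, CALCRL, is a G protein-coupled receptor that reaches the cell surface together with one of the small membrane proteins called RAMPs, and the RAMP sets which ligand it prefers. With RAMP1 the complex is a receptor for the calcitonin gene-related peptide (CGRP), and with RAMP2 or RAMP3 it is a receptor for adrenomedullin. All of these complexes couple to the stimulatory G protein and raise cAMP. *Adm* is also known as a gene that cells induce when oxygen is low.

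RNA was sequenced from tumors of mice lacking the chemerin-binding receptor CCRL2 (KO) and of WT mice. LLC tumors, from the Lewis lung carcinoma line, were taken from KO hosts (LLC KO) and from WT hosts (LLC WT), and tumors of the B16 melanoma line from KO hosts (B16 KO) and from WT hosts (B16 WT). All hosts were C57BL/6 mice, syngeneic with both lines, the cells had been grafted in the back, and the labels give day 5 after the graft for every tumor, although legends of the study give an earlier day for B16. KO and WT describe the host only, as the grafted cells carried an intact *Ccrl2*. For the age of its mice the study gives only a general range. A group had 2 libraries, made from a pool of several tumors each, so that a p-value measures only the spread between pools.

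Levels are given as RPM, reads on a gene in 1 M of its library's reads on genes, which were obtained by dividing the deposited values by 20. The libraries held an estimated 17.6 to 30.84 M reads on genes, and 3 reads corresponded to between 0.0973 and 0.170 RPM, for counting error only. The tumor labels matched the marker genes. The summed level of 5 melanocyte genes, led by *Dct* and *Tyrp1*, was 0.35 to 1.2 RPM in LLC pools and 13820 to 17140 RPM in B16 pools, and that of 3 epithelial keratin genes, led by *Krt8* and *Krt18*, was 277.9 to 471.9 RPM in LLC pools and 1.45 to 2.0 RPM in B16 pools. *Ccrl2* read 11.45 and 5.15 RPM in LLC KO and 9.4 and 5.25 RPM in LLC WT, and it checks no host label because the grafted cells carry the gene. Some libraries stood apart. The Y-linked gene *Ddx3y* was at 31.0 and 34.9 RPM in the LLC KO pools and at 0 in the other 6 libraries, while *Lars2* was at 1194 and 1362 RPM in the LLC WT pools and at 70.75 to 163.35 RPM elsewhere. *Xist*, the RNA of the inactive X chromosome, was at 631.95 and 709.7 RPM in LLC KO, 323.15 and 295.8 RPM in LLC WT and 55.6 to 90.2 RPM in B16, so that the pools with Y-linked transcripts also had the most *Xist*. Both pools of a group shared each of these features, so in LLC the host genotype and these features cannot be told apart. The pool B16 WT 1 alone held skeletal muscle RNA, with a summed level of 625.4 RPM over 5 genes, led by *Acta1* and *Tnnt3*, against 1.7 to 3.1 RPM in the other 7 libraries. In bulk tumor RNA, fewer cells of a type and less RNA per cell cannot be told apart.

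In GRCm38, *Adm* (ENSMUSG00000030790) lies on the plus strand of chromosome 7, from 110627661 to 110629820, with 1619 exon bases in the annotation of GENCODE M21. An antisense gene, *Gm28863*, lies within the locus but shares 0 exon bases with it. *Calcrl* (ENSMUSG00000059588) is transcribed from the minus strand of chromosome 2, between 84330626 and 84425411, with 4882 exon bases. *Ramp1* (ENSMUSG00000034353) lies on the plus strand of chromosome 1, from 91179822 to 91225196. *Ramp2* (ENSMUSG00000001240) and *Ramp3* (ENSMUSG00000041046) are both on the plus strand of chromosome 11, from 101246028 to 101259546 and from 6658521 to 6677475. Of the 3301 exon bases of *Ramp2*, 1103 are shared with *Vps25*, listed here at 0.1 to 0.55 RPM, so the level of *Ramp2* is the less certain for it.

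The sequences upstream of *Adm* and *Calcrl* are shown because these are the members whose levels differed most between the groups. They were read from the RefSeq promoter windows of GRCm38, which held 4 of the 5 genes, and run 5′ to 3′ on the strand of the gene, up to the start of the gene in either annotation. Capitals mark the letters ACGTG or GCGTG on either strand, the core of the element bound by hypoxia-inducible factors; on the other strand they read CACGT and CACGC.
Adm, chr7:110627407-110627656, plus strand: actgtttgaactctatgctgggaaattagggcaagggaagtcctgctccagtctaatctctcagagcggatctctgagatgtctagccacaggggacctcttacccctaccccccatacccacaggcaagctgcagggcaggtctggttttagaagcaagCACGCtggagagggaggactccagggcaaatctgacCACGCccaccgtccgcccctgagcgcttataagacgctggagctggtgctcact
Calcrl, chr2:84425412-84425516, minus strand: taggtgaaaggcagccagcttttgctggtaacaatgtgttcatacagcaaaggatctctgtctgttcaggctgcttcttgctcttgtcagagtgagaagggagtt
The *Adm* stretch held 2 matches, starting 94 and 58 bases before the annotated start, both reading CACGC. The *Calcrl* stretch, of 105 bases against 250 for *Adm*, held none. Its full window of 300 bases had 1, after the start. The window of *Ramp3* had 2 matches and that of *Ramp1* had 0. Of the 32817 promoter windows of this length, from 250 bases before the start to 50 after it, 43.8% held at least 1 match and 20.6% at least 2, where the overlapping pair in CACGTG counts as 2. A match is a description of the letters and not evidence of binding.

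*Adm* was the member with the widest range. It reached 138.7 and 156.25 RPM in LLC KO, against 28.6 and 31.25 RPM in LLC WT. In B16 it read 19.85 and 21.85 RPM in KO hosts and 19.75 and 22.2 RPM in WT hosts. The LLC KO pools thus stood far above all others, the LLC WT pools came next, and the pools of the 2 B16 groups overlapped. The mean was 147.5 ± 12.4 RPM in LLC KO and 29.9 ± 1.87 RPM in LLC WT, a ratio of 4.93, and 20.85 ± 1.41 RPM in B16 KO and 20.98 ± 1.73 RPM in B16 WT, a ratio of 0.994 (SD, n = 2 pools each). On the scale of log2(RPM + 0.5), the host difference was 2.28 (SE 0.11) in LLC and -0.01 (SE 0.11) in B16. *Adm* was also measured deeply, with an estimated 495 to 2811 reads per library and a counting error of at most 4.49%.

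**Figure D1:**
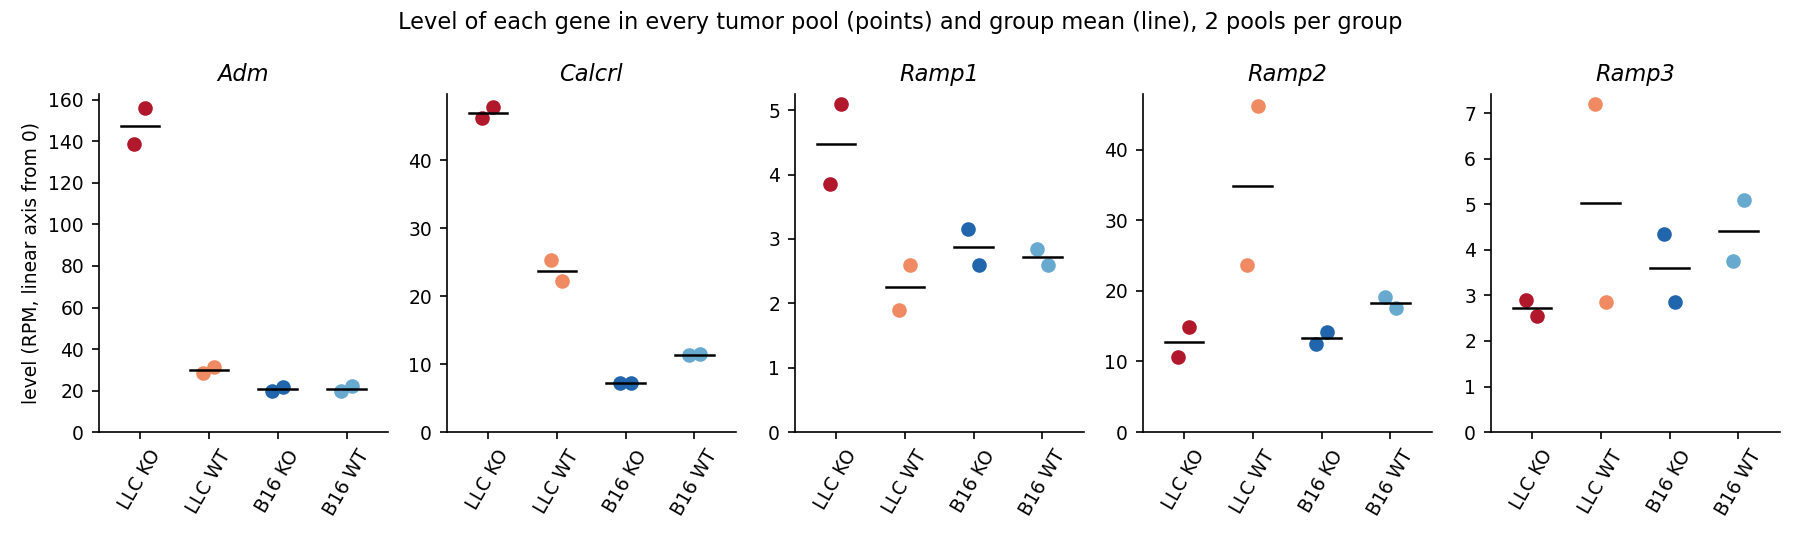
Level in RPM (linear axes from 0) of the 5 genes in each pool (points), with the group mean (line), for LLC KO, LLC WT, B16 KO and B16 WT. *Adm* and *Calcrl* are highest in both LLC KO pools, whereas *Ramp2* is highest in the LLC WT pools, at 23.6 and 46.15 RPM.

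The other peptide genes that can act on this receptor family were scarce. Adrenomedullin 2, encoded by *Adm2*, also acts on CALCRL with the RAMPs. It read 2.55 and 3.25 RPM in LLC KO, against 1.3 and 0.8 RPM in LLC WT, and 0.1 to 0.25 RPM in the B16 pools. *Adm2* rose in LLC KO by 1.14 on the log2 scale (SE 0.22, adjusted p = 0.00702, limma with Benjamini-Hochberg adjustment over 14706 genes). The CGRP genes were below the limit of 1 RPM in 2 libraries that was required for a test. *Calcb*, for beta-CGRP, was listed at 0.5 and 0.55 RPM in LLC KO and 0 and 0.1 RPM in LLC WT, *Calca*, for alpha-CGRP, at no more than 0.1 RPM in any pool, and *Iapp*, for amylin, at no more than 0.05 RPM.

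Of the genes that mature, carry or degrade the ligand, *Pam* and *Ece1* were expressed at higher levels. *Pam* encodes the enzyme that amidates adrenomedullin and other peptides. Its level was 335.9 and 325.4 RPM in LLC KO, against 297.15 and 333.45 RPM in LLC WT, and 109.55 and 109.65 RPM in B16 KO, against 95.25 and 112.85 RPM in B16 WT. The LLC host difference of *Pam* was 0.07 on the log2 scale (adjusted p = 0.587). *Ece1*, the endothelin-converting enzyme, fell to 37.25 and 41.7 RPM in LLC KO, against 58.9 and 79.85 RPM in LLC WT (log2 difference -0.79, SE 0.15, adjusted p = 0.00649). *Mme*, the peptidase neprilysin, read 1.05 and 1.4 RPM in LLC KO and 0.95 and 0.4 RPM in LLC WT, which did not pass the test (log2 difference 0.59, adjusted p = 0.101). *Mme* passed without LLC WT 1 (adjusted p = 0.0194).

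*Calcrl*, the receptor gene, differed between all groups and in opposite directions between the tumors. It read 46.2 and 47.75 RPM in LLC KO, against 25.3 and 22.2 RPM in LLC WT. In B16 it was at 7.2 RPM in both KO pools, against 11.35 and 11.45 RPM in WT hosts. The pools of the 4 groups did not overlap anywhere along the order LLC KO, LLC WT, B16 WT and B16 KO. The means were 47.0 ± 1.096 RPM in LLC KO and 23.75 ± 2.19 RPM in LLC WT, a ratio of 1.98, and 7.2 ± 0 RPM in B16 KO and 11.4 ± 0.0707 RPM in B16 WT, a ratio of 0.632 (SD, n = 2 pools each). On the log2 scale the host difference was 0.97 (SE 0.11) in LLC and -0.63 (SE 0.11) in B16. The 2 pools of each B16 group lay closer together than the counting error of *Calcrl*, which was 3.27% to 7.43% of its level per library, so their SD understates the error. Among the 14706 genes tested, 7.6% had both LLC KO pools above the LLC WT pools and both B16 KO pools below the B16 WT pools, as *Calcrl* did.

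The coreceptor genes did not move together. *Ramp2*, the partner that makes CALCRL an adrenomedullin receptor on endothelial cells, read 10.6 and 14.85 RPM in LLC KO, against 23.6 and 46.15 RPM in LLC WT. In B16 it read 12.5 and 14.2 RPM in KO hosts, against 19.1 and 17.5 RPM in WT hosts. KO pools were below WT pools in both tumors, and the KO pools of the 2 tumors overlapped. Host pools without overlap, in either direction, were found for 69.6% of all tested genes in LLC and for 47.2% in B16. The share of genes lower in both tumors was not counted. The ratio of the means was 0.365 in LLC and 0.730 in B16, with log2 differences of -1.36 (SE 0.29) and -0.44 (SE 0.29). The size of the LLC difference rested on the WT pools: it was -1.84 without LLC WT 1 and -0.88 without LLC WT 2.

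*Ramp1*, the CGRP receptor partner, was low, at an estimated 59 to 90 reads per library. It read 3.85 and 5.1 RPM in LLC KO, against 1.9 and 2.6 RPM in LLC WT, and 3.15 and 2.6 RPM in B16 KO, against 2.85 and 2.6 RPM in B16 WT. The LLC KO pools lay above the other 6, which overlapped between groups. The log2 host difference was 0.86 (SE 0.21) in LLC and 0.06 (SE 0.21) in B16, with a counting error of 10.6% to 13.1% of the level per library.

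*Ramp3*, the second adrenomedullin coreceptor, read 2.9 and 2.55 RPM in LLC KO, against 7.2 and 2.85 RPM in LLC WT, and 4.35 and 2.85 RPM in B16 KO, against 3.75 and 5.1 RPM in B16 WT. Host groups overlapped in both tumors. The log2 difference in LLC, -0.66 (SE 0.38), was -0.06 without LLC WT 1 and -1.26 without LLC WT 2, so a single pool set its size.

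**Figure D2:**
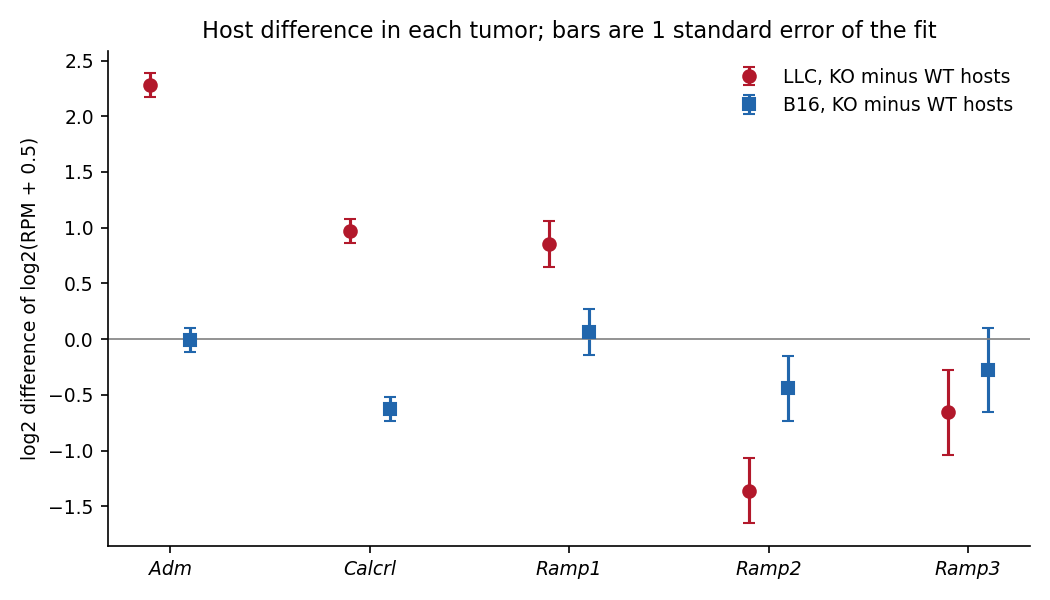
Host difference (KO minus WT, in log2 of RPM + 0.5) of each gene in LLC and in B16, as points with bars of 1 standard error of the fit. *Adm*, at 2.28 in LLC and -0.01 in B16, and *Calcrl*, at 0.97 and -0.63, have the widest gaps between the tumors.

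In LLC, the KO and WT pools did not overlap for 4 of the 5 genes, where the same was true of 69.6% of all tested genes. In B16 this held for *Calcrl* and *Ramp2*, 2 of 5, where 47.2% of all tested genes had such pools. In the limma fit over all genes, 4 of the 5 genes were called at an adjusted p under 0.05 in LLC, 3 higher and 1 lower in KO hosts, against 38.3% of all tested genes, 15.1% higher and 23.1% lower. Scaled by TMM factors or by the median of ratios, 54.6% and 53.7% of the calls over all genes were higher, against 39.6% as deposited. In B16, 0 of the 5 genes were called, as were 0.0% of all genes. An unadjusted p under 0.05 in this fit was reached by 1 of the 5 and by 1442 of the 14706 tested genes. For the difference of the 2 host effects in the same fit, 2 of the 5 genes were called, against 15.2% of all genes. Since the genes were chosen for such values, nothing is read from these counts. With a library left out in turn, the number of the 5 genes called in LLC changed, and so did the number called over all genes. Nothing is read from that change either.

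Divided by exon length, which allows levels of different genes to be compared, *Ramp2* was the most abundant of the 3 coreceptor genes in every pool. Of the summed RAMP level per kb, *Ramp1* made up 20.2% ± 1.18 in LLC KO and 4.96% ± 0.178 in LLC WT, and 12.5% ± 0.817 in B16 KO and 9.36% ± 0.888 in B16 WT (SD, n = 2 pools each). The *Ramp2* share was 52.4% ± 5.12 in LLC KO and 68.85% ± 19.6 in LLC WT, and 53.5% ± 8.54 in B16 KO and 57.5% ± 5.28 in B16 WT. The *Ramp3* share was 27.45% ± 6.30 in LLC KO and 26.2% ± 19.75 in LLC WT, and 34.0% ± 7.72 in B16 KO and 33.1% ± 6.17 in B16 WT. Only for *Ramp1* did the shares of KO and WT pools not overlap in LLC, and this was also so for *Ramp1* in B16. Counted over exon bases that no other gene shares, the *Ramp1* share was 15.7% in LLC KO and 3.64% in LLC WT.

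The balance of coreceptor to receptor transcripts followed from these levels. The summed RAMP level per kb was 0.696 and 0.821 times that of *Calcrl* in LLC KO, against 2.51 and 3.72 times in LLC WT. In B16 the ratio was 5.41 and 4.90 in KO hosts, against 4.06 and 4.203 in WT hosts. With all annotated exon bases counted, LLC KO was the only group of the 4 whose *Calcrl* level per kb exceeded that of all RAMP genes together. Counted over exon bases that no other gene shares, which are 2198 of the 3301 of *Ramp2*, this held in LLC KO 1 but not in LLC KO 2. For *Ramp2* alone the ratio to *Calcrl* was 0.339 and 0.460 in LLC KO, against 1.38 and 3.07 in LLC WT, and 2.57 and 2.92 in B16 KO, against 2.49 and 2.26 in B16 WT. These are ratios of transcript levels summed over all cells of a tumor and say nothing of receptor protein.

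**Figure D3:**
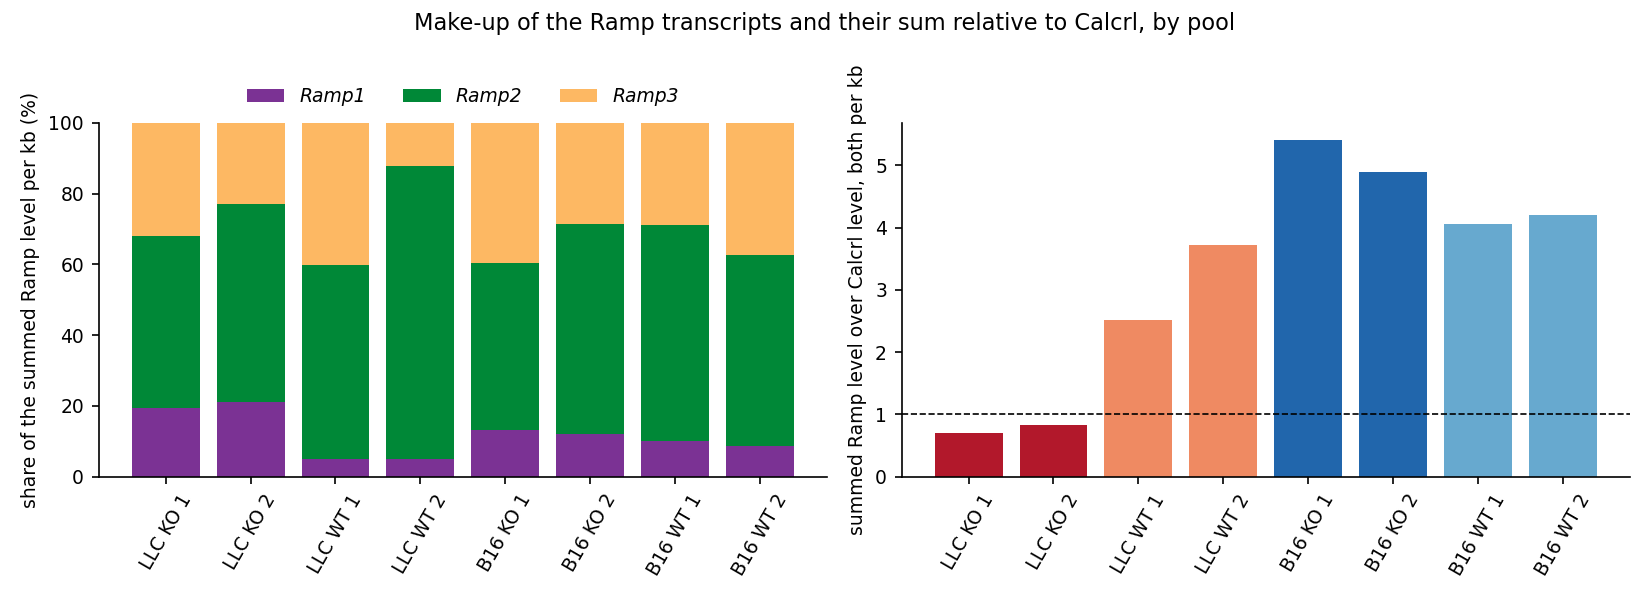
Left, share in percent of each *Ramp* gene in the summed *Ramp* level per kb in each pool; right, that sum over the *Calcrl* level per kb, with a broken line at equality. The *Ramp1* share is 19.3% and 21.01% in the LLC KO pools and 4.84% and 5.09% in the LLC WT pools. With all annotated exon bases counted, as drawn, the right-hand ratio is below 1 in both LLC KO pools alone.

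Between the tumors, *Adm* and *Calcrl* were higher in LLC than in B16 in all pools, 2 of 5 genes without overlap, where 62.4% of all tested genes had pools without overlap. The size depended on the host. *Adm* was 7.07 times as high in LLC KO as in B16 KO and 1.43 times as high in LLC WT as in B16 WT. *Calcrl* was 6.52 times as high in LLC KO as in B16 KO and 2.08 times as high in LLC WT as in B16 WT. The mean of *Ramp2* was 0.953 times in LLC KO that in B16 KO and 1.91 times in LLC WT that in B16 WT. Its pools did not overlap in WT hosts. The share of all genes with such pools within a host was not counted. By limma, which is an unlike measure, 67.7% of all tested genes were called between the tumors in WT hosts. The ratios of *Ramp1* were 1.56 in KO hosts and 0.826 in WT hosts, and those of *Ramp3* 0.757 and 1.14. LLC and B16 pools overlapped for *Ramp2* in KO hosts, for *Ramp1* in WT hosts and for *Ramp3* in both. Per kb, *Adm* had the highest mean of the 5 genes in every group, 91.1 in LLC KO, 18.5 in LLC WT, 12.9 in B16 KO and 13.0 in B16 WT.

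Endothelial genes, which mark the main vascular site of this receptor, fell in LLC KO. Of 14 blood endothelial genes, led in level by *Cd34* and *Eng*, 11 fell in LLC KO and none rose, with a median log2 difference of -2.74, beside -0.09 over all tested genes. In B16 none passed the limma test (4 at an unadjusted p under 0.05), and the median was -1.32, beside -0.05 over all genes. The summed level was 354.8 and 494.1 RPM in LLC KO, against 799.9 and 1169 RPM in LLC WT, and 301.6 and 316.4 RPM in B16 KO, against 473.3 and 417.1 RPM in B16 WT. None of the 14 genes was at 0 in all pools. The number of falls in LLC was 7 without LLC WT 1, 5 without the filter on low values and 5 with each tumor fitted alone.

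*Cd34* and *Eng* carried most of that sum, 93.2% and 80.7% in LLC KO, 59.7% and 78.5% in LLC WT, 74.9% and 81.1% in B16 KO and 55.2% and 63.2% in B16 WT, and their LLC differences of -0.86 (adjusted p = 0.0805) and -0.79 (adjusted p = 0.00118) were smaller than the median of the list. *Ramp2* came to 0.0299 and 0.0301 of the endothelial sum in LLC KO, against 0.0295 and 0.0395 in LLC WT, and to 0.0415 and 0.0449 in B16 KO, against 0.0404 and 0.0420 in B16 WT. *Calcrl* came to 0.130 and 0.0966 in LLC KO, against 0.0316 and 0.0190 in LLC WT, but to 0.0239 and 0.0228 in B16 KO, against 0.0240 and 0.0275 in B16 WT. *Ramp1* came to 0.0108 and 0.0103 in LLC KO, against 0.00238 and 0.00222 in LLC WT, and to 0.0104 and 0.00822 in B16 KO, against 0.00602 and 0.00623 in B16 WT. The ratio of *Ramp3* was 0.00244 to 0.0144 over the 8 libraries, and its host groups overlapped in both tumors. The ratios depended on the 2 leading genes. Against the sum of the other 12, an alternative chosen after seeing the data, *Ramp2* came to 0.437 and 0.155 in LLC KO, against 0.0732 and 0.184 in LLC WT, and to 0.165 and 0.237 in B16 KO, against 0.0901 and 0.114 in B16 WT. *Calcrl* then came to 1.91 and 0.50 in LLC KO, against 0.0785 and 0.0884 in LLC WT, and to 0.0950 and 0.120 in B16 KO, against 0.0536 and 0.0746 in B16 WT. With either sum the *Calcrl* ratio was highest in the LLC KO pools, and that of *Ramp2* to the 12 genes lay between 0.0732 and 0.437. The cells that carried the *Calcrl* transcripts in LLC KO were not resolved in these data. *Cdh5*, which encodes the junction protein VE-cadherin and was picked after its values were seen, was also set beside the receptor genes. It was at 1.0 and 11.6 RPM in LLC KO, against 51.35 and 34.1 RPM in LLC WT, and at 7.15 and 5.65 RPM in B16 KO, against 27.6 and 16.25 RPM in B16 WT.

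**Figure D4:**
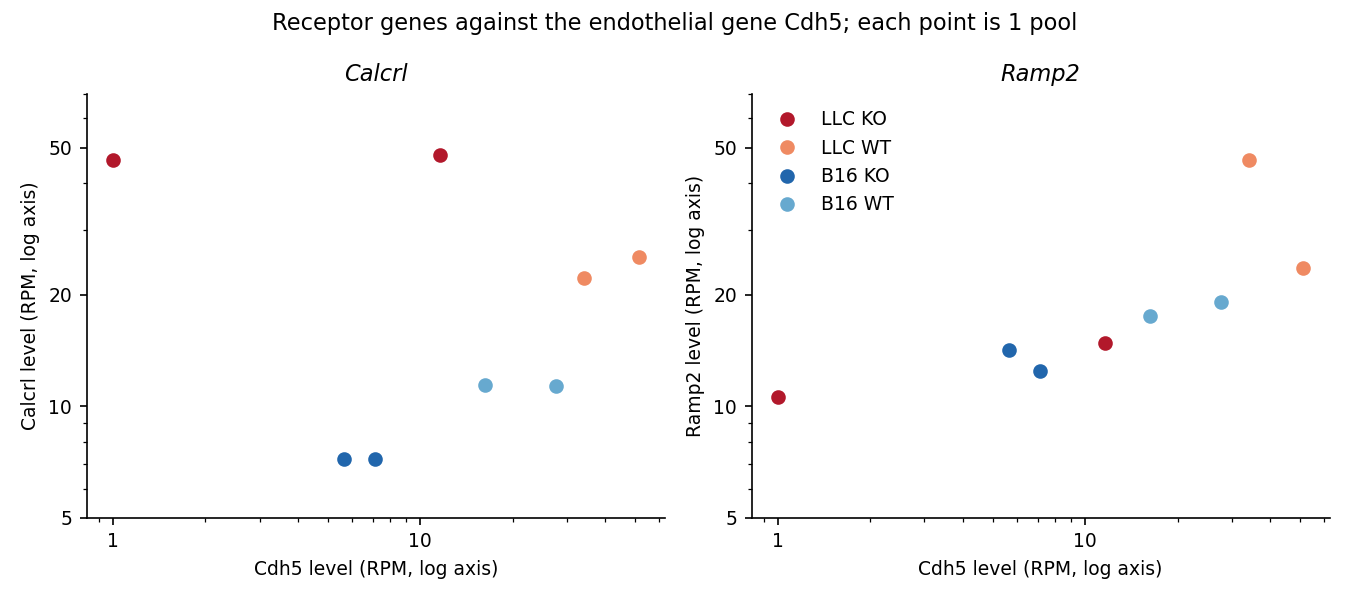
Levels in RPM of *Calcrl* (left) and *Ramp2* (right) against that of *Cdh5*, on log axes, with 1 point per pool. The pool with *Cdh5* at 1.0 RPM had *Calcrl* at 46.2 RPM, in the upper left corner, and *Ramp2* at 10.6 RPM, the lowest of all pools.

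The genes of lymphatic and mural cells were looked at in the same way. Of 6 lymphatic endothelial genes, led by *Pdpn* and *Lyve1*, 4 could be tested. *Lyve1* rose in LLC KO, at 127.3 and 120.05 RPM against 22.4 and 18.15 RPM in LLC WT (log2 difference 2.59, adjusted p = 0.0218), and *Flt4* fell (log2 difference -1.87, adjusted p = 0.0127). The call of *Lyve1* was lost without LLC KO 1, LLC KO 2 or LLC WT 2, without the filter on low values and with robust moderation, and that of *Flt4* with LLC fitted alone. The defining marker *Prox1* was at 0 and 0.05 RPM in LLC KO and 0.3 and 0.2 RPM in LLC WT, and *Ccl21a* at 0 in all pools. The pericyte genes, led by *Pdgfrb* and *Rgs5*, summed to 27.2 and 86.15 RPM in LLC KO, against 176.9 and 134.8 RPM in LLC WT, with 3 of 6 lower, and the smooth muscle genes, led by *Acta2* and *Tagln*, to 7.95 and 37.8 RPM, against 96.5 and 87.05 RPM, with 1 of 3 tested lower. Leaving out a library gave 2 to 4 pericyte genes lower, and without LLC KO 2 all 3 smooth muscle genes were lower.

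Immune, nerve and fat cell genes gave no common pattern. The macrophage genes, led by *Mrc1* and *Csf1r*, summed to 1332 and 1563 RPM in LLC KO, against 1309 and 1648 RPM in LLC WT, with 1 of 5 higher and 1 lower, but none called without LLC KO 1 or LLC WT 2 and none higher without LLC KO 2. The mast cell genes, led by *Mcpt4* and *Cpa3*, summed to 87.95 and 227.6 RPM in LLC KO, against 59.85 and 25.85 RPM in LLC WT, with 5 of 6 higher, but 0 of 5 tested without LLC KO 2 and 2 of 6 without LLC WT 2. The nerve genes, led by *Tubb3*, summed to 20 and 41.15 RPM in LLC KO, against 76.15 and 38.15 RPM in LLC WT, with 1 of 5 lower, but 4 without LLC KO 2 and 2 without LLC WT 2. The adipocyte genes, led by *Fabp4* and *Adipoq*, summed to 2.55 and 47.45 RPM in LLC KO, against 27.05 and 18.95 RPM in LLC WT, with none of 4 called, but 2 higher without LLC KO 1 and 1 lower without LLC KO 2. The part of any of these cell types in the levels of the 5 genes was not tested.

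*Adm* was set beside a list of 17 other genes known to be induced by low oxygen, led in level by the glycolytic genes *Ldha* and *Pgk1*. All 17 rose in LLC KO under every alternative run, with a median log2 difference of 1.17. *Pgk1* reached 1672 and 1654 RPM in LLC KO, against 824.25 and 789.2 RPM in LLC WT (log2 difference 1.04, adjusted p = 0.000458). In B16 none of the 17 passed the limma test (6 at an unadjusted p under 0.05), with a median of 0.17, and 13 of them had a larger host difference in LLC than in B16 by the test of that difference, a count of 10 to 16 when a library was left out. The order of the summed list between the tumors was the reverse of that of *Adm*. The list summed to 9765 and 10400 RPM in LLC KO and 15570 and 16360 RPM in B16 KO, and to 4438 and 4203 RPM in LLC WT and 13830 and 14120 RPM in B16 WT, so that 12 of the 17 genes were lower in LLC than in B16 and 3 higher. *Adm* was higher in LLC in either host, as were those 3 genes over both hosts. The part of low oxygen in the level of *Adm* was not tested.

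Of the 43 further genes of ligand handling, receptor partners and cAMP signaling, 37 had a level high enough for a test. In LLC, 9 rose and 10 fell in KO hosts, 51.4% of those tested beside 38.3% of all genes, with a median of 0.02 beside -0.09 over all genes. In B16, 0 of the 37 were called by limma, with an adjusted p of 0.305 or more for each and an unadjusted p under 0.05 for 6. The 7 tested receptors and partners gave 4 falls and 1 rise. *Slc9a3r1*, the scaffold NHERF1 that binds RAMP3, fell to 32.75 and 30.85 RPM in LLC KO, against 53.3 and 61.75 RPM in LLC WT (log2 difference -0.84, adjusted p = 0.00123). *Nsf*, whose product takes part in receptor recycling, fell by 0.66 (adjusted p = 0.0021). *Arrb2* and *Adrbk1*, which encode the beta-arrestin and the receptor kinase that desensitize G protein-coupled receptors, fell by 0.81 and 0.54 (adjusted p = 0.0017 and 0.00278). The rise was that of *Arrb1*, the other beta-arrestin, named after its value was seen (log2 difference 0.56, adjusted p = 0.01004), a call lost without LLC KO 2. *Ackr3*, an atypical receptor that can take up adrenomedullin, read 98.95 and 118.9 RPM in LLC KO and 91.85 and 195.5 RPM in LLC WT and was not called, and the calcitonin receptor gene *Calcr* was at no more than 0.15 RPM in any pool.

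Of 25 tested genes of the stimulatory G protein and cAMP, 7 rose and 5 fell in LLC KO, beside 15.1% of all genes higher and 23.1% lower. The rises were 2 without LLC KO 1 or LLC KO 2 and 4 without any 1 of the B16 pools, and 3 with LLC fitted alone. *Rap1a*, a small GTPase downstream of cAMP in endothelial cells, rose to 169.8 and 174.4 RPM in LLC KO, against 110.8 and 111.8 RPM in LLC WT (log2 difference 0.63, adjusted p = 0.00195). *Gnas*, the gene of the stimulatory G protein itself, rose by 1.12 (adjusted p = 0.0125), a call lost without LLC KO 2 (0.85, adjusted p = 0.0697), and it shares 2457 exon bases with other genes, so its level is uncertain. Among the falls, *Pde3a*, a cAMP phosphodiesterase, was at 1.55 and 1.95 RPM in LLC KO, against 6.7 and 9.6 RPM in LLC WT (log2 difference -1.93, adjusted p = 0.00167). The adenylyl cyclase genes *Adcy4* and *Adcy2* fell by 1.98 and 0.88 (adjusted p = 0.00747 and 0.00602). *Adcy4* was at 0.6 and 2.1 RPM in LLC KO, against 7.3 and 5.2 RPM in LLC WT. *Pde3a*, *Adcy2* and *Arrb2* also share some exon bases with other genes. The endothelial list fell in the same pools, and its part in these falls was not tested.

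**Figure D5:**
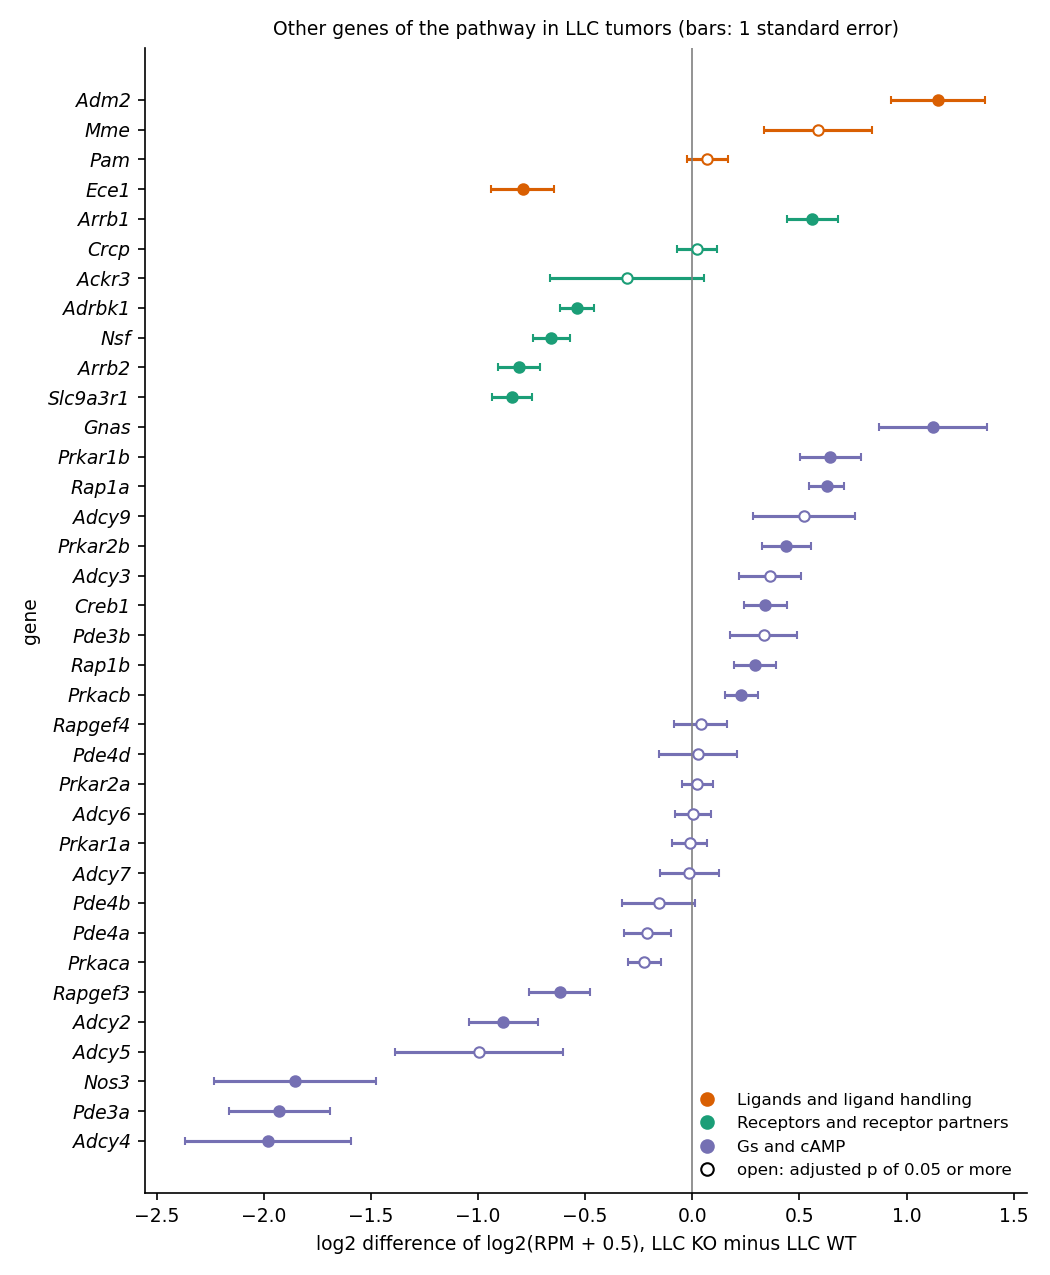
Host difference in LLC (LLC KO minus LLC WT, log2 of RPM + 0.5) of 36 of the 37 tested genes of the pathway, with bars of 1 standard error; colors mark the 3 groups of genes and filled points an adjusted p under 0.05. Filled points stand on both sides of 0, 9 higher and 10 lower, with *Adcy4* and *Pde3a* lowest and *Adm2* and *Gnas* highest.

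The host effects in LLC and B16 were also compared directly, by the test of their difference. Of the 37 pathway genes, 7 had a higher and 4 a lower host difference in LLC than in B16, 29.7% of those tested beside 15.2% of all genes. Without a single library this count ranged from 1 to 14. *Rap1a* was called in all of these fits (0.82, adjusted p = 0.00868). *Slc9a3r1* differed by -0.81 (adjusted p = 0.0129) and was not called without B16 KO 1, B16 WT 1 or B16 WT 2. *Adm2* differed by 1.31 (adjusted p = 0.0331), *Gnas* by 1.61 (adjusted p = 0.0274) and *Nsf* by -0.60 (adjusted p = 0.0231), and each of these calls was lost without most single libraries.

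Between the tumors, 18 of the 37 pathway genes were higher in LLC and 7 lower, 67.6% of those tested beside 77.5% of all genes. In WT hosts alone it was 17 higher and 7 lower, 64.9% beside 67.7% of all genes. *Rapgef4*, a cAMP-sensing exchange factor named after its values were seen, stood at 3.1 and 3.0 RPM in LLC KO and 3.35 and 2.6 RPM in LLC WT, and at 114.65 and 107.6 RPM in B16 KO and 115.95 and 114.35 RPM in B16 WT. Its log2 difference between the tumors was -5.02.

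The genes whose levels over the 8 libraries were most like those of each member were found by Pearson's r of log2 values, as a description over libraries that share their groups. Those nearest to *Adm* included *Tnr* (r = 0.997) and *Fgf11* (0.993). *Tnr* was at 13.25 and 15.4 RPM in LLC KO, against 0.4 and 0.95 RPM in LLC WT. Nearest to *Calcrl* were *Chml* (0.997), *Zmym5* (0.995) and *Col6a5* (0.995), and to *Ramp2* *Tgfb2* (0.982), *Efnb1* (0.981) and *Ccdc125* (0.98). *Tgfb2* read 3.9 and 6.2 RPM in LLC KO, against 9.8 and 14.65 RPM in LLC WT. Nearest to *Ramp1* were *P4ha2* (0.933), which is one of the 17 low-oxygen genes, *Zfp169* (0.922) and *Rpl31-ps8* (0.916), and to *Ramp3* *Polr2k* (0.961), *Gpr171* (0.956) and *Thoc1* (0.942). An r above 0.9 was reached by 4.4% of all tested genes with *Adm*, by 13.8% with *Calcrl*, by 0.83% with *Ramp2*, by 0.17% with *Ramp3* and by 0.102% with *Ramp1*. The pseudogene *Rpl31-ps8* shares sequence with its parent gene, so its level is uncertain.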

How the data were processed

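The RNA of pooled tumors was sequenced from TruSeq libraries as paired reads. Per the labels and the submitters' processing notes, the authors used Trimmomatic, STAR and HTSeq with GRCm38.p4 (mm10), of which the versions are not given in the sources used here, and they compared groups with EdgeR. In the deposited table each gene has a score per library, for which the authors scaled the counts of a library to a total of 20 M and rounded them, so the values are not raw counts. They were divided by 20 (RPM), and the read depth was estimated from the spacing of low values, least certainly for LLC KO 1. Strand-specific counting is not stated.

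Genes with at least 1 RPM in 2 libraries (14706 genes, all 5 members among them) entered limma 3.58.1 (R 4.3.3) as log2(RPM + 0.5), with a mean-variance trend and the 4 groups in 1 model (4 residual and 3.68 prior degrees of freedom). All 8 libraries were used. Benjamini-Hochberg adjusted p under 0.05 was the threshold, two-sided, and the script was tested on simulated data. Contrasts were KO against WT hosts in LLC, in B16 and averaged, the difference of the 2, and LLC against B16. The model for counts that the authors used was replaced because the values are scaled. Same-numbered replicates were not paired, because nothing ties them across groups and the correlations of same-numbered deviations were -0.0301 to 0.308. Fold changes on the log2(RPM + 0.5) scale understate those of low genes.

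The members, the gene lists and the tests were chosen with earlier results of these data known. Named were all 5 members, of each pathway group up to 4 genes with the smallest adjusted p in LLC and up to 2 for the difference, per member the 3 highest r, and per marker list the 2 genes of highest mean level; exceptions are given as chosen after their values were seen, and a few genes under this rule are not reported here. Exon lengths are those of GENCODE M21. Tables and figures used Python 3.11.15, pandas 2.3.3 and matplotlib 3.10.9. Alternatives were other pseudocounts, filters, scalings (TMM, median of ratios), robust moderation, a replicate block, each tumor fitted alone and each library left out; lengths without shared exon bases, WT hosts alone and an endothelial sum without its 2 leading genes were added after seeing the data.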

Additional observations from a re-analysis of the deposited data

Results flagged for a closer look

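*Calcrl* had both KO pools above the WT pools in LLC and below them in B16, and the 2 host differences were 1.60 apart on the log2 scale. The gene was chosen for such values, so this difference is given as a description, with no p-value. In the pathway list, 11 genes passed limma's test of the difference between the LLC and B16 host effects, and the 7 of them that are named in the report are given here. The LLC minus B16 effect was 1.31 for *Adm2*, 1.61 for *Gnas* and 0.815 for *Rap1a*, and -0.484 for *Adrbk1*, -0.599 for *Nsf*, -1.27 for *Pde3a* and -0.805 for *Slc9a3r1*. Both LLC KO pools carried Y-linked transcripts and both LLC WT pools high *Lars2*, and the part of these features in the differences cannot be told apart from the host genotype. The call of *Rap1a* held without each library in turn, and the other 6 were lost without at least 3 of the 8 libraries.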

How the results depend on the processing

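Some results changed direction under the alternatives run. With TMM or median-of-ratios scaling, the calls in LLC and those averaged over both tumors turned from mostly lower to mostly higher. The difference of *Ramp1* between the tumors changed sign in WT hosts alone. In B16, the *Calcrl* ratio to the endothelial sum was lower in KO than in WT pools, but higher without the 2 leading genes of that sum. The log2 difference of *Calcrl* in LLC was 0.97, 1.06 with TMM factors, 1.06 with the median of ratios, and 0.88 to 1.06 when libraries were left out in turn. The genes called in LLC were 5628, 3292 with each tumor fitted alone, and 2613 to 5580 when a library was left out, while the pathway calls there ranged from 13 to 21 around 19. In B16 the count over all genes was 0, and 11 without B16 WT 2. For the hosts averaged over both tumors it was 3386, 1655 without the filter on low values and 811 to 4028 with a library left out, with 12 pathway calls and a range of 4 to 13. The averaged calls were 35.3% higher, against 60.3% with TMM factors and 60.8% with the median of ratios. For the difference of the host effects it was 2236, 795 without the filter and 318 to 3616 with a library left out, and the 11 pathway calls were 3 without the filter and 1 to 14 with a library left out. The cause of these shifts was not tested.

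With the replicate number as a block, the genes called in LLC were 6005 and the pathway calls 20, the difference calls 2712 and 13, and the averaged calls 3952. Over the gene lists the block added 3 calls in LLC and 6 for the difference and ended 1 for the difference. Among the genes named in the report, it added those of *Cd34* in LLC (adjusted p = 0.0157) and of *Arrb1*, *Arrb2* and *Csf1r* for the difference (adjusted p = 0.0259, 0.0386 and 0.0245). The samples share only a number. In the LLC against B16 comparison, WT hosts alone gave log2 differences of 0.50 for *Adm*, 1.02 for *Calcrl*, -0.24 for *Ramp1* and 0.84 for *Ramp2*, beside 1.65, 1.82, 0.16 and 0.38 over both hosts. Shares of the *Ramp* genes without division by length put *Ramp1* at 22.4% in LLC KO and 5.43% in LLC WT. With 2 pools per group, differences of *Ramp1* and *Ramp3*, at 45 to 222 reads, are bounded by counting error as well as by the spread between pools.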
